A study of Mus musculus with 14 samples.

Results

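The 50 genes described here encode proteins that act in the G2 phase of the cell cycle and in mitosis, from the kinase Cdk1 and its cyclins to the motors of the spindle and the ring that cuts the cell apart. They were taken as a list of gene symbols by function, and those with a mean of at least 10 normalised counts were kept. No comparison between groups entered this rule, but the list was chosen with earlier results of these data known. All 50 were found among the 18355 genes of the normalised count table, and all 50 met this minimum, which was also the minimum for testing and was met by 15565 genes. The lowest value of any of them in any library was 194 normalised counts, for Cdc25c in the 2aOKO O4 library 3.

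The libraries were made from brains of mice at postnatal day 8. Cells were freed with papain and bound to magnetic beads, either against CD140a (Pdgfra, the receptor that marks oligodendrocyte precursor cells, OPCs) or against O4, a surface lipid antigen of immature oligodendrocytes, and 900 ng of total RNA was used for each library. Control mice (2afl/fl) carried Mfsd2a, the gene of a transporter of lysophosphatidylcholine lipids, with loxP sites on both alleles. The 2aOKO mice carried the same alleles together with a Cre recombinase driven by Pdgfra, so the deletion was aimed at cells that use this promoter. There were 3 libraries of 2afl/fl OPC, 4 of 2aOKO OPC, 3 of 2afl/fl O4 and 4 of 2aOKO O4, 14 in all. The sorts were by bead binding alone and the RNA of each library came from a mixture of cells, so fewer dividing cells and less RNA of these genes per cell cannot be told apart.

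A cell that has copied its DNA passes through G2 phase and enters mitosis when cyclin B and Cdk1 become active, and most genes of this set are transcribed in G2 phase and silent in cells at rest. OPCs are the main dividing cells of the oligodendrocyte lineage in the early postnatal brain. They stop dividing when they commit to differentiation, before they make myelin. Many G2 and mitosis genes are controlled through a pair of short promoter motifs, the CHR element, bound by the DREAM and MuvB complexes, and the CCAAT box, bound by NF-Y.

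The libraries had normalised totals from 34120823 to 41030171, and no pair was identical. Pdgfra was read at 237100 or more normalised counts in every OPC library and at 112900 to 186000 in the O4 libraries, while Mbp, the gene of myelin basic protein, was at 1944 to 2867 in OPC libraries and at 135000 to 589300 in O4 libraries. The sorts thus differed in the direction of their labels, although Pdgfra remained abundant after the O4 sort. Mfsd2a had 7585, 7979 and 16340 normalised counts in 2afl/fl OPC and 7055, 7188, 3665 and 6843 in 2aOKO OPC, with a log2 fold change of -0.74 ± 0.32 (SE) that did not pass the test over all genes (limma, adjusted p = 1). In O4 the 2afl/fl libraries had 6762, 7777 and 12880 and the 2aOKO libraries 7101, 6536, 3615 and 6596, with -0.61 ± 0.32 (adjusted p = 0.999). In both sorts the libraries numbered 3 had the highest 2afl/fl value and the lowest 2aOKO value. The values of a whole gene do not show which part was deleted, and they do not separate the genotypes in the O4 sort. On the first principal component, which held 48.7% of the variance, the 2afl/fl O4 library 2 lay at 13.96, between the OPC libraries (-42.52 to -36.72) and the other O4 libraries (29.80 to 53.87). It also had the least Mbp of the O4 libraries, and the counts and medians of the 50 genes and of the pathway lists in the O4 comparisons of 2afl/fl mice are therefore given with and without it.

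The comparison of O4 with OPC in 2afl/fl mice asks how far G2 and mitosis genes differ between precursors and immature oligodendrocytes. They were lower in O4 almost as a block: 46 of 50 passed the test as lower and 0 as higher, where 12.2% of all genes tested were called lower and 14.3% higher. The median log2 fold change of the 50 genes was -0.87, against -0.01 for all genes. It ran from -1.11 for Hmmr to 0.20 for Tubb4b. Among the 46 that fell, the mean in O4 was between 49.0% (Kif20b) and 82.6% (Ckap5) of the mean in OPC. The libraries of the sorts did not overlap for 46 of the 50 genes, and they did not overlap in that direction for 16.5% of all genes. These calls came from limma on log2(normalised count + 1) with 1 mean per group and a spread pooled over all 14 libraries (Benjamini-Hochberg over 15565 genes, two-sided, adjusted p under 0.05). With the 6 2afl/fl libraries fitted alone the fold changes stayed as they were but 7 of the 50 passed. Of all genes, 218 were lower and 625 higher in that fit. Without all libraries numbered 1 none of the 50 passed, at a median of -0.85, with 112 of all genes lower and 449 higher. Without those numbered 3 there were 24, at -0.67, with 358 of all genes lower and 914 higher. Without the O4 library 2, 47 passed and the median was -1.17, with 2846 of all genes lower and 3034 higher. The role groups described next then had medians from -1.24 (cytokinesis) to -1.01 (chromosome structure), with the same counts of calls except for all 6 genes of cytokinesis.

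In 2aOKO mice the group means came from other libraries, while the spread was again pooled over all 14. Here 48 of 50 genes were lower in O4 and 0 higher, where 15.5% of all genes were called lower and 17.6% higher, and the median log2 fold change was -0.90 (all genes, -0.02). The range ran from -1.19 for Cdc25c to 0.15 for Tubb4b, and the O4 mean of the 48 was between 43.8% (Cdc25c) and 82.7% (Ckap5) of the OPC mean. For 48 genes the libraries did not overlap, against 19% of all genes in that direction. Fitted alone, the 8 2aOKO libraries gave 48 as well, with 3046 of all genes called lower and 3377 higher. All 46 genes called in 2afl/fl mice were among the 48. The plot of both comparisons shows the 2 sets of intervals lying over each other for nearly every gene.

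**Figure D1:**
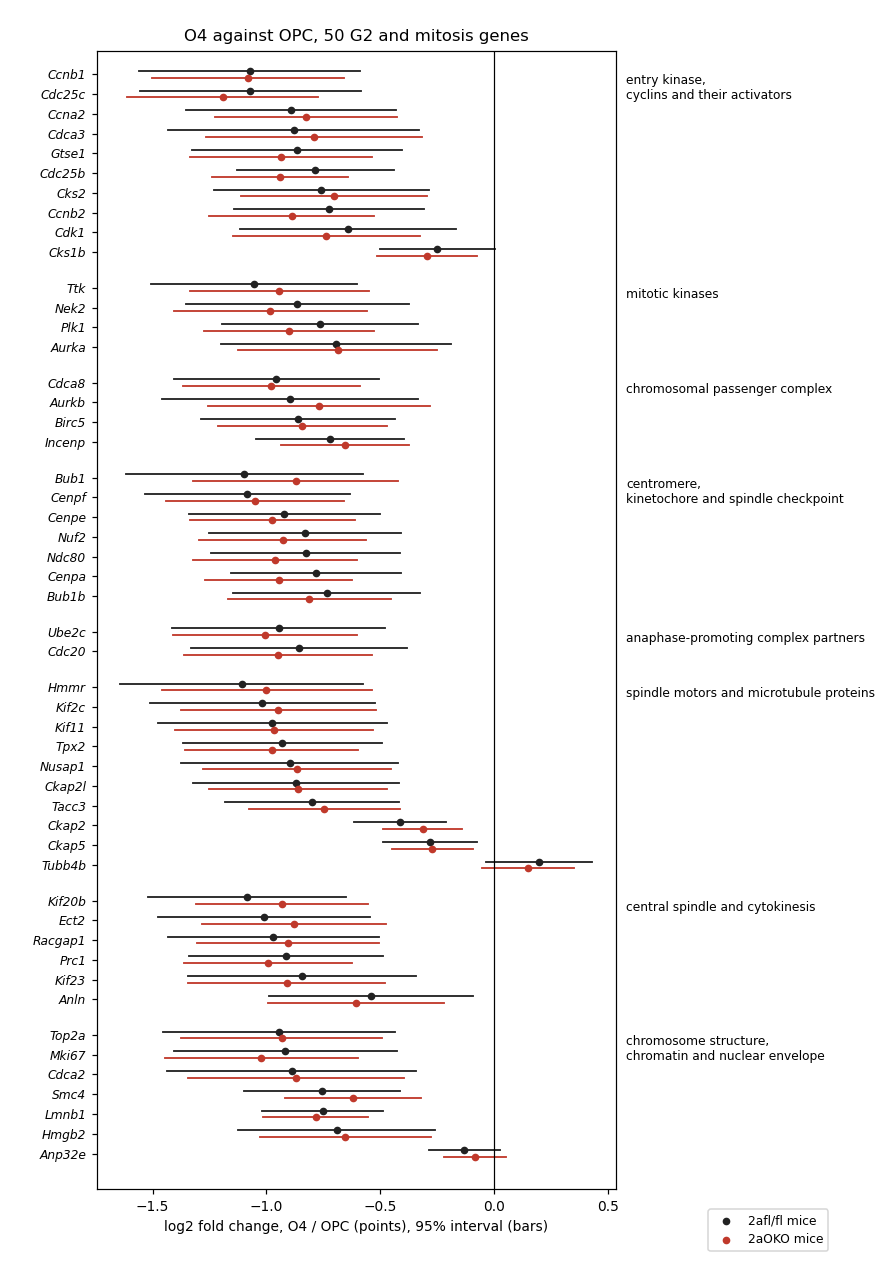
Log2 fold change of O4 against OPC for each of the 50 genes in 2afl/fl mice (black) and 2aOKO mice (red), ordered by role, with 95% intervals from limma. Most points lie well below 0, with medians of -0.87 and -0.90, while Tubb4b, Anp32e, Cks1b, Ckap5 and Ckap2 lie nearer to 0 in both genotypes.

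Entry into mitosis is driven by Cdk1, which needs a cyclin partner, a Cks subunit and removal of its inhibitory phosphates by Cdc25 phosphatases. Of 10 genes of this role, 9 were lower in O4 in 2afl/fl mice and all 10 in 2aOKO mice. Ccnb1, which encodes cyclin B1, changed most in the controls. It had 2409, 2726 and 2371 normalised counts in 2afl/fl OPC and 978, 1858 and 918 in 2afl/fl O4. In 2aOKO mice it had 2243, 2490, 2271 and 2442 in OPC and 1215, 1147, 782 and 1415 in O4. Every O4 library was below every OPC library, with log2 fold changes of -1.07 ± 0.23 (SE, adjusted p = 0.00428) in 2afl/fl and -1.08 ± 0.20 (adjusted p = 0.000936) in 2aOKO mice. Cdc25c, a phosphatase that switches Cdk1 on, was close to it at -1.07 and -1.19. Cdk1 itself fell less, by 0.64 ± 0.22 (adjusted p = 0.0442) and by 0.74 ± 0.19 (adjusted p = 0.00873) on the log2 scale. Its call in 2afl/fl mice was lost in 15 alternative fits, among them the one without the intensity trend of limma (adjusted p = 0.074).

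The exception in this role was Cks1b, a Cdk subunit that also serves the SCF ubiquitin ligase in destroying the inhibitor p27. It had 501, 614 and 534 normalised counts in 2afl/fl OPC and 486, 466 and 431 in 2afl/fl O4, and 475, 527, 466 and 452 in 2aOKO OPC against 394, 426, 344 and 400 in 2aOKO O4. The sorts were separate in both genotypes but close together. The log2 fold change was -0.25 ± 0.12 in 2afl/fl mice (adjusted p = 0.135) and -0.29 ± 0.10 in 2aOKO mice (adjusted p = 0.0391). It was thus called in 2aOKO mice alone, and the difference of these changes was -0.045 ± 0.16 (limma over all libraries, adjusted p = 1). The 2aOKO call was lost in 12 alternative fits, with an adjusted p of 0.123 without the 2aOKO O4 library 3. Its paralog Cks2 fell by 0.76 and 0.70 on the log2 scale. Whether reads of any of the 50 genes are shared with near-identical copies elsewhere in the genome was not examined.

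The 4 mitotic kinases were all lower in O4 in both genotypes, with medians of -0.82 and -0.92. Ttk (Mps1), which starts the spindle checkpoint at unattached kinetochores, had 880, 1033 and 858 normalised counts in 2afl/fl OPC and 453, 641 and 298 in 2afl/fl O4. In 2aOKO mice it had 775, 718, 663 and 811 against 440, 370, 314 and 426. The sorts were apart by more than the spread within them, at -1.06 ± 0.21 (adjusted p = 0.00328) and -0.94 ± 0.18 (adjusted p = 0.00147). Aurka, the kinase of spindle poles, changed least. It had 622, 815 and 522 in 2afl/fl OPC and 374, 608 and 273 in O4, so that the O4 library 2 lay above the lowest OPC library. In 2aOKO mice it had 586, 610, 519 and 639 against 343, 345, 327 and 453, with no overlap. Its log2 fold changes were -0.69 ± 0.24 (adjusted p = 0.0417) and -0.69 ± 0.20 (adjusted p = 0.0179), and the call in 2afl/fl mice was lost in 14 alternative fits. Plk1, which acts from mitotic entry to cytokinesis, fell by 0.77 and 0.90, and Nek2, a kinase that parts the centrosomes, by 0.86 and 0.98 on the log2 scale.

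The chromosomal passenger complex corrects faulty attachments of chromosomes to the spindle and consists of the kinase Aurkb with Incenp, Birc5 (survivin) and Cdca8 (borealin). All 4 subunits were lower in O4 in both genotypes, with medians of -0.88 and -0.81. Cdca8 had 1619, 1721 and 1522 normalised counts in 2afl/fl OPC against 835, 1228 and 564 in O4, and 1557, 1496, 1460 and 1373 against 765, 694, 609 and 955 in 2aOKO mice. Incenp, the scaffold, had 2436, 2471 and 2229 against 1505, 1788 and 1108, and 2208, 2049, 1882 and 2088 against 1385, 1338, 1041 and 1496. Neither gene had overlapping sorts in either genotype. Cdca8 fell by 0.96 ± 0.21 (adjusted p = 0.00516) and 0.98 ± 0.18 (adjusted p = 0.00109) on the log2 scale, and Incenp by 0.72 ± 0.15 (adjusted p = 0.0042) and 0.66 ± 0.13 (adjusted p = 0.00181).

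Kinetochores are built on centromeres that carry the histone variant Cenpa, and they hold microtubules through the Ndc80 complex, which includes Nuf2. The 7 genes of centromere, kinetochore and checkpoint were all lower in O4 in both genotypes, with medians of -0.83 and -0.94. Bub1, a checkpoint kinase, had 1552, 1838 and 1382 normalised counts in 2afl/fl OPC against 614, 1236 and 530 in O4, and 1496, 1404, 1290 and 1396 against 818, 792, 570 and 911 in 2aOKO mice. Its relative Bub1b (BubR1), which restrains the anaphase-promoting complex, had 1737, 1949 and 1767 against 1022, 1521 and 831, and 1688, 1739, 1641 and 1675 against 944, 1133, 698 and 1137. In both genes the 2afl/fl O4 library 2 was the highest O4 library and still lay below every OPC library. Bub1 changed by -1.10 ± 0.24 (adjusted p = 0.00541) and -0.87 ± 0.21 (adjusted p = 0.00565), and Bub1b by -0.74 ± 0.19 (adjusted p = 0.0126) and -0.81 ± 0.17 (adjusted p = 0.00211). Cenpf, a large kinetochore protein of G2 phase and mitosis, had log2 fold changes of -1.08 and -1.05.

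Exit from mitosis depends on the anaphase-promoting complex, with Cdc20 as its activator and Ube2c as its ubiquitin-conjugating enzyme. Ube2c had 1586, 1487 and 1443 normalised counts in 2afl/fl OPC against 795, 1152 and 519 in O4, and 1415, 1463, 1253 and 1403 against 724, 752, 508 and 804 in 2aOKO mice. Cdc20 had 2188, 2201 and 2199 against 1132, 1817 and 862, and 2060, 2289, 1991 and 1969 against 1194, 1046, 767 and 1384. Both were lower in every O4 library than in any OPC library. Ube2c changed by -0.95 ± 0.22 (adjusted p = 0.00665) and -1.01 ± 0.19 (adjusted p = 0.00117), and Cdc20 by -0.86 ± 0.22 (adjusted p = 0.0119) and -0.95 ± 0.19 (adjusted p = 0.0019). Cdc20 lies over Elovl1 on the opposite strand, and since no strand setting of the counting is given, reads of the pair may not be told apart. The same holds for Ccna2 with Exosc9, Nusap1 with Oip5, Tubb4b with Fam166a and Anln with 9530077C05Rik, 5 of the 50 genes in all.

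Of 10 genes of spindle motors and microtubule proteins, 9 were lower in O4 in each genotype. Hmmr, which focuses spindle poles, had 1203, 1459 and 1374 normalised counts in 2afl/fl OPC against 514, 1030 and 452 in O4, and 1290, 1400, 1201 and 1280 against 661, 742, 450 and 784 in 2aOKO mice. This was the steepest change of the set in the controls, at -1.11 ± 0.25 (adjusted p = 0.00573), and -1 ± 0.22 in 2aOKO mice (adjusted p = 0.00285). Kif11 (Eg5), the motor that pushes spindle poles apart, fell by 0.97 in both genotypes, and Tpx2, which activates Aurka, by 0.93 and 0.98 on the log2 scale. Tubb4b went the other way. This β-tubulin is part of microtubules in many cells, dividing or not. It had 7509, 7103 and 6348 in 2afl/fl OPC against 9490, 7308 and 7357 in O4, and 7279, 6979, 5851 and 6495 against 8018, 7123, 7072 and 7220 in 2aOKO mice. The sorts overlapped in both genotypes, and neither log2 fold change passed the test, at 0.20 ± 0.11 (adjusted p = 0.199) and 0.15 ± 0.09 (adjusted p = 0.25). Ckap5, which speeds microtubule growth in interphase cells too, changed by -0.28 ± 0.10 (adjusted p = 0.0419) and -0.27 ± 0.08 (adjusted p = 0.0206), and Ckap2 by -0.41 and -0.31. The Ckap5 call was lost in 13 alternative fits in 2afl/fl mice and in 6 in 2aOKO mice.

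**Figure D2:**
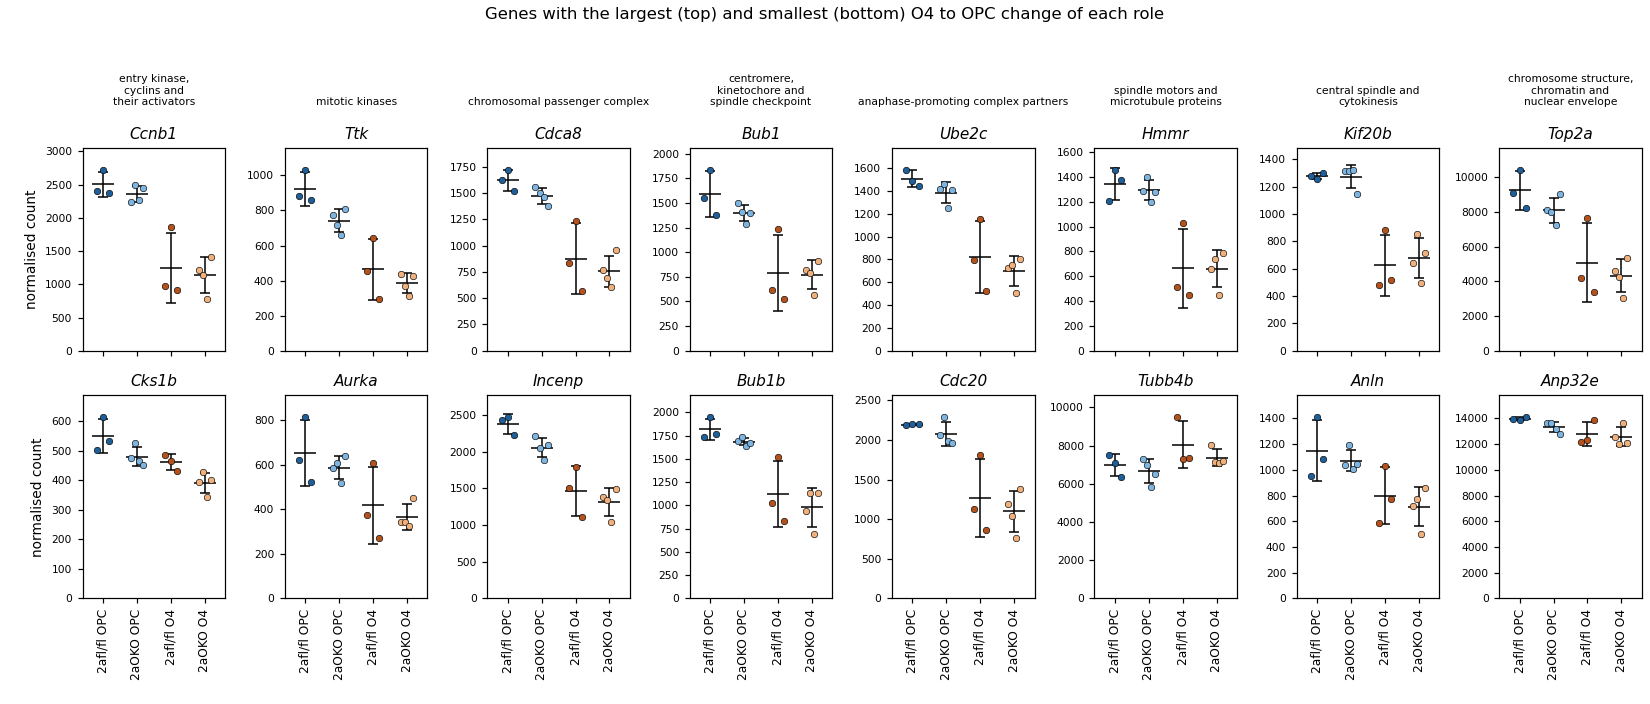
Normalised counts of the gene with the largest (upper row) and the smallest (lower row) change between the sorts in each role, one point per library, with bars at the mean ± SD (n = 3 for 2afl/fl and n = 4 for 2aOKO groups). In the upper row each O4 library lies below each OPC library of its genotype, and the highest of the 3 2afl/fl O4 points is library 2 throughout. Tubb4b and Anp32e of the lower row have groups at like levels.

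The central spindle and the cleavage furrow divide the cell after the chromosomes have parted. All 6 genes of this role were lower in O4 in 2aOKO mice and 5 in 2afl/fl mice, with medians of -0.91 and -0.94. Kif20b, a kinesin of the midzone, had 1279, 1254 and 1298 normalised counts in 2afl/fl OPC against 478, 884 and 515 in O4, and 1313, 1312, 1326 and 1149 against 644, 858, 499 and 714 in 2aOKO mice. It changed by -1.08 ± 0.20 (adjusted p = 0.00222) and -0.93 ± 0.18 (adjusted p = 0.00123). Anln (anillin), the scaffold of the contractile ring, had 949, 1409 and 1084 against 589, 1033 and 774, and 1037, 1191, 1009 and 1045 against 721, 774, 504 and 858. The 2afl/fl O4 library 2 lay within the range of the OPC libraries, while the 2aOKO sorts did not overlap. Anln is also made by oligodendrocytes as part of myelin septin filaments. Its log2 fold change was -0.54 ± 0.21 in 2afl/fl mice (adjusted p = 0.0692) and -0.61 ± 0.18 in 2aOKO mice (adjusted p = 0.0183), and the difference of the changes was -0.07 ± 0.28 (limma over all libraries, adjusted p = 1). With the library number as a replicate block the change in 2afl/fl mice passed (adjusted p = 0.0196), as it did without the O4 library 2 (-0.74, adjusted p = 0.00994).

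Among 7 genes of chromosome structure, chromatin and the nuclear envelope, 6 were lower in O4 in each genotype, with medians of -0.76 and -0.78. Mki67, whose protein Ki-67 coats mitotic chromosomes and marks cycling cells, went from 10650 ± 1748 to 5861 ± 2279 normalised counts (SD, n = 3) in 2afl/fl mice and from 10410 ± 854 to 5219 ± 1159 (SD, n = 4) in 2aOKO mice, with log2 fold changes of -0.92 ± 0.23 and -1.02 ± 0.20. Top2a, the topoisomerase that untangles chromosomes, had 9111, 10450 and 8218 in 2afl/fl OPC against 4221, 7663 and 3388 in O4, and 8143, 8019, 7254 and 9020 against 4620, 4270, 3061 and 5330 in 2aOKO mice. Within each genotype no O4 library reached the OPC range, and the changes were -0.94 ± 0.24 (adjusted p = 0.0104) and -0.93 ± 0.21 (adjusted p = 0.00335). Lmnb1, which encodes lamin B1 of the nuclear envelope, fell with a narrow error, by 0.75 ± 0.12 (adjusted p = 0.000918) and by 0.78 ± 0.11 (adjusted p = 0.000115) on the log2 scale. Anp32e, a chaperone that removes the histone variant H2A.Z, did not pass. It had 13980, 13890 and 14090 against 12140, 12340 and 13860, and 13630, 13640, 13160 and 12810 against 12550, 11980, 13600 and 12090, with -0.13 ± 0.07 (adjusted p = 0.197) and -0.09 ± 0.06 (adjusted p = 0.33). The first pair of groups did not overlap by a narrow margin, and the second overlapped. When libraries were rescaled to equal totals, which moved the median of all genes to -0.13 and -0.14, Anp32e was called lower at -0.24 and -0.20.

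The size of the change varied from library to library. O4 minus OPC within a library number gave a median over the 50 genes of -0.88, -0.45 and -1.26 in the 2afl/fl libraries numbered 1 to 3 and of -0.82, -0.85, -1.18 and -0.65 in the 2aOKO libraries numbered 1 to 4. In each of these 7 pairs 48 or 49 of the 50 genes were lower in O4. Together the 50 genes held 0.361% to 0.456% of the normalised total in OPC libraries and 0.185% to 0.339% in O4 libraries. The 2afl/fl O4 library 2 had the highest value of all 7 O4 libraries for 47 genes. The lowest was the 2aOKO O4 library 3 for 27 genes and the 2afl/fl O4 library 3 for 19. In the OPC sort the 2afl/fl library 2 was highest for 38 genes and the 2aOKO library 3 lowest for 25.

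These O4 libraries also differed in myelin genes. Ordered by Mbp, from 135000 to 217000, 267600, 333400, 375200, 426100 and 589300 normalised counts, the median log2 deviation of the 50 genes from their own mean was 0.18, -0.25, -0.41, -0.39, -0.42, -0.86 and -0.84. The library with the least Mbp thus had the highest level of the G2 and mitosis genes, and the 2 libraries with the most Mbp the lowest. The OPC libraries lay between 0.30 and 0.61. How far the mixture of stages in each sort sets these values was not tested.

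**Figure D3:**
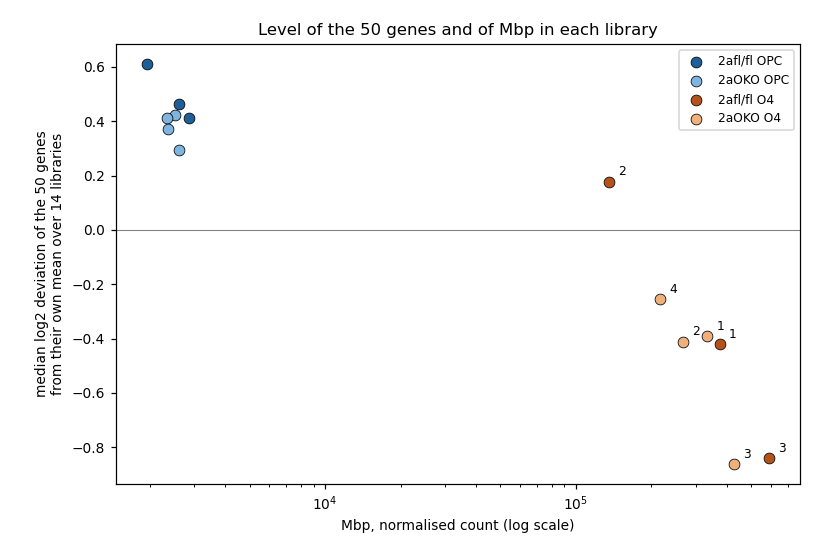
Median log2 deviation of the 50 genes from their mean over 14 libraries against the Mbp normalised count of the same library (log axis), 1 point per library, with the library number beside the O4 points. OPC libraries lie at 0.30 to 0.61 and O4 libraries from 0.18 down to -0.86, the latter in the libraries with the most Mbp.

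Markers of other cells moved with the sort as well. Of 12 microglial markers, 10 rose in O4 in 2afl/fl and 11 in 2aOKO mice, and their summed level went from 3298 to 5367 normalised counts in 2afl/fl OPC libraries to 7998 to 13270 in O4, and from 3914 to 4575 up to 8298 to 12810 in 2aOKO mice. Border macrophage markers rose in 4 and 5 of 6, from sums of 249.5 to 338 in OPC libraries to sums of 1135 to 1538 in O4. All 7 tested of 8 markers of meningeal fibroblasts, which also make Pdgfra, were lower in O4, with sums of 44290 to 71240 in OPC libraries and 19160 to 35930 in O4. None of the microglial and macrophage markers was at 0 in any library, and of the fibroblast markers Dpep1 was at 0 in 2 libraries. Of 10 interneuron progenitor markers tested, 3 were lower and 1 higher in 2afl/fl mice and 2 lower in 2aOKO mice. Astrocyte markers rose in 4 of 10 in each genotype. OPC markers were lower in 7 and 8 of 10 (medians -0.65 and -0.64), and 1 was higher in 2aOKO mice. Of 8 pericyte markers, a list that holds Cspg4, 1 and 2 were lower, with sums of 90810 to 142100 against 49710 to 126000 in 2afl/fl and 87330 to 99580 against 47400 to 65140 in 2aOKO mice. No endothelial or erythroid marker passed, and 1 of 7 excitatory neuron markers rose in 2afl/fl mice. Without the 2afl/fl O4 library 2, the 2afl/fl counts were the same for microglia, border macrophages and fibroblasts. There 8 OPC markers were lower and 1 higher, 2 pericyte markers were lower, and 1 astrocyte marker was lower and 4 higher. The part of these cells in the change of the G2 and mitosis genes was not tested.

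The bases around the start of transcription (250 before and 50 after it, RefSeq, build GRCm38.p6) were at hand for 42 of the 50 genes. They were searched on both strands for the CHR element, spelled as TTTGAA or with the variant letters TTCGAA or else the letters TTTAAA, and for the CCAAT box. A CHR was found in 37 of 42 (88.1%), against 24.5% of the 12277 genes tested that had a window and 31.9% of all 27025 genes with one. A CCAAT box was found in 34 of 42 (81.0%), against 42.5% and 41.1%. Both were present in 32 (76.2%), against 11.6% of the genes tested. The motif letters TTTGAA accounted for most, in 31 of 42, with TTTAAA in 11 and TTCGAA in 4. The median position of the first base was -67 for CCAAT boxes and -18 for CHR elements, counted from the start. The genes were chosen by function, and many are known in mouse and human cells to be controlled through these motifs, so the match is a description of the set.

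The 110 bases just before the start are shown for 5 genes that fell in both genotypes, which do not stand for the whole set, and for both genes that passed the test in neither, with matches to the CHR or the CCAAT box on either strand in capitals. Cdk1, Ccnb1, Plk1, Cdc20 and Ube2c each have both motifs in this stretch.
Cdk1, chr10:69352913-69353022, minus strand: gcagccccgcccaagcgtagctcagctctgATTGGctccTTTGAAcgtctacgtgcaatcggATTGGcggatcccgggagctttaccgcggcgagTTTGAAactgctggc
Ccnb1, chr13:100786487-100786596, minus strand: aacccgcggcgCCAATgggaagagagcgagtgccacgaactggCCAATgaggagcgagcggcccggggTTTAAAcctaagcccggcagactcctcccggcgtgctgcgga
Plk1, chr7:122159325-122159434, plus strand: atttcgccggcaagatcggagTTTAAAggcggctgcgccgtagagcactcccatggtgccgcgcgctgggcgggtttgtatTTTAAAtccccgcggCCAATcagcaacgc
Cdc20, chr4:118437344-118437453, minus strand: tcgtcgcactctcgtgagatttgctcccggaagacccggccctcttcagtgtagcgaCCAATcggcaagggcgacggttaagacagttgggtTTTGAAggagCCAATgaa
Ube2c, chr2:164769819-164769928, plus strand: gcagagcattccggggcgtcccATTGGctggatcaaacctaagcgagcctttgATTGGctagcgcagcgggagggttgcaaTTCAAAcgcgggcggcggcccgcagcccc
Tubb4b, chr2:25224703-25224812, minus strand: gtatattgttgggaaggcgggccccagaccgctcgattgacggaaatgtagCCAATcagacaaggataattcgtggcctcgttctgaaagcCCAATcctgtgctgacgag
Anp32e, chr3:95929147-95929256, plus strand: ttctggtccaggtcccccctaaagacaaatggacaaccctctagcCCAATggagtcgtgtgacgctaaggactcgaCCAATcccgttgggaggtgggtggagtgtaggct
Tubb4b and Anp32e have CCAAT boxes but no CHR in this stretch. The only CHR match begins at -198 in Tubb4b and at -195 in Anp32e. This says only that the letters are absent from these 110 bases, and it does not set these genes apart. Of 38 genes with a window that were called lower in both genotypes, 16 have a whole CHR match in the same stretch and 22 have none.

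Other genes of the cell cycle were compared with the 50 in lists of the same kind. Of 90 further genes of mitosis and G2 phase, 60 were lower and 1 higher in O4 in 2afl/fl mice, with a median of -0.75. In 2aOKO mice 71 were lower and 2 higher, with -0.76. The shares over all genes tested were 12.2% lower and 14.3% higher in 2afl/fl mice, and 15.5% and 17.6% in 2aOKO mice. Cip2a, Ska3, Ncapd2 and Hjurp had the smallest p in the controls, at -0.90, -0.95, -0.72 and -0.93. Mad1l1, a checkpoint protein of the nuclear pore, rose in both genotypes (0.52 and 0.70), and Arpp19, an inhibitor of a phosphatase opposed to Cdk1, in 2aOKO mice (0.26). Of 54 genes of DNA replication and S phase, 38 and 47 were lower and 0 higher, with medians of -0.58 and -0.59. These lay nearer to 0 than the median of the 50 genes, and that distance was not tested. Dscc1, Uhrf1, Cdc7 and Lig1 led this list in the controls, at -1.06, -0.84, -0.56 and -0.76. In 2afl/fl mice without the O4 library 2, 72 of the 90 genes were lower and 2 higher (median -1.001), and 49 of the 54 were lower (-0.78). The same fit called 2846 of all genes lower and 3034 higher.

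Of 27 genes that regulate the programme, 6 were lower, 1 higher and 20 not called in 2afl/fl mice, with a median of -0.14. Of all genes tested, 12.2% were lower and 14.3% higher. In 2aOKO mice 7 were lower and 3 higher, with -0.15, where 15.5% and 17.6% of all genes were. In 2afl/fl mice 10 were lower and 3 higher once the O4 library 2 was left out (median -0.21). Of all genes, 2846 were then lower and 3034 higher. Foxm1, a transcription factor that drives G2 genes, fell by 0.94 ± 0.21 (adjusted p = 0.00535) and by 0.88 ± 0.18 (adjusted p = 0.00213) on the log2 scale. Wee1, the kinase that holds Cdk1 inactive, changed by -0.91 and -0.85, and Rbl1 (p107), a pocket protein, by -0.78 and -0.70. Gadd45a, an inhibitor of the Cdk1 and cyclin B complex that is induced by stress, rose by 0.92 ± 0.26 (adjusted p = 0.0171) and 1.18 ± 0.22 (adjusted p = 0.00121). In 2aOKO mice E2f3 and E2f8 also rose, by 0.39 and 0.48.

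**Figure D4:**
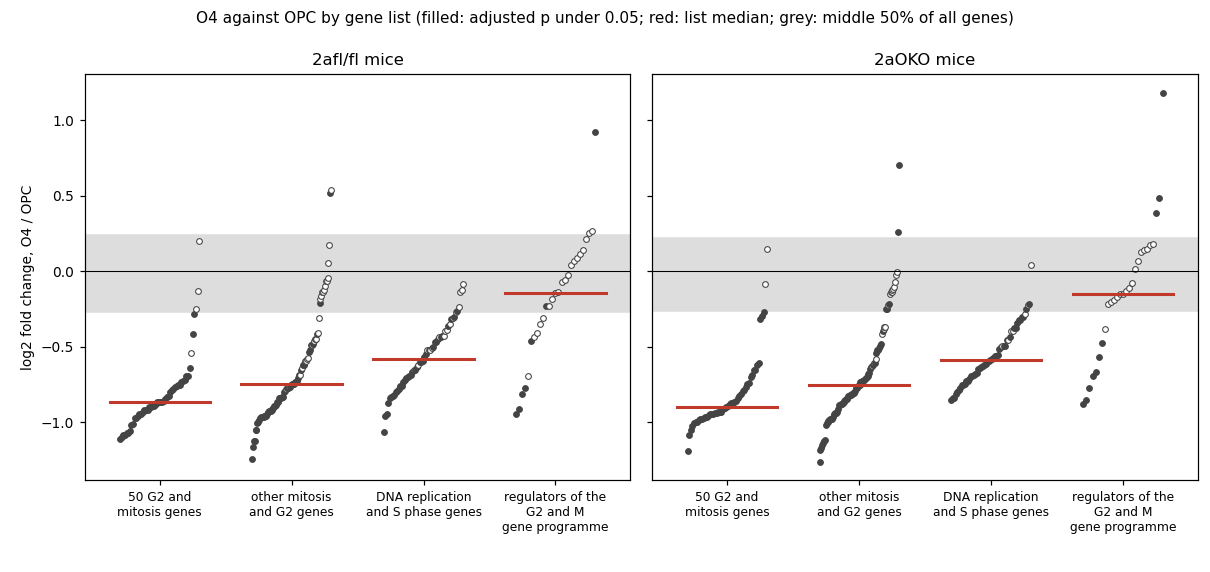
Log2 fold change of O4 against OPC for each gene of 4 lists, in 2afl/fl mice (left) and 2aOKO mice (right), sorted within a list. Filled points passed the adjusted threshold of 0.05, red lines are list medians (-0.87, -0.75, -0.58 and -0.14 from left to right in 2afl/fl mice) and the grey band holds the central part of all genes between the quartiles.

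The comparison of 2aOKO with 2afl/fl OPC asks whether the deletion aimed at Mfsd2a changed the level of G2 and mitosis genes in precursors. None of the 50 passed the test, as was true of all genes (0%), and 0 of the 50 had an unadjusted p under 0.05, while 251 of 15565 genes did (0.835% lower and 0.777% higher). All 50 had a log2 fold change below 0, against 50.7% of all genes, and the median was -0.11 (all genes, -0.002). The values lay between -0.32 (Cks2) and -0.003 (Gtse1). The same 7 libraries give all 50 values, which are therefore not independent of each other. Without the 2afl/fl OPC library 2, which had the highest value of the 7 OPC libraries for 38 genes, 36 of 50 were below 0 and the median was -0.05. Under the looser rule used in the study, which joins an unadjusted p with a minimum fold change, 0 of the 50 and 163 of all genes passed.

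The smallest p in OPC belonged to Cks1b, Ckap2 and Ttk, all with an adjusted p of 1 by limma. Ttk had 880, 1033 and 858 normalised counts in 2afl/fl and 775, 718, 663 and 811 in 2aOKO OPC, a log2 fold change of -0.31 with a 95% interval from -0.74 to 0.11. Its groups did not overlap. Ckap2, a microtubule protein of spindle poles, had 2071, 2393 and 1890 against 2000, 2008, 1793 and 1831, which overlapped, at -0.15 (-0.33 to 0.04). Cks1b was at -0.19 (-0.43 to 0.04), with overlap. The genotypes did not overlap for 6 of the 50 genes, all lower in 2aOKO, namely Ttk, Cks2, Incenp, Cdca3, Anp32e and Tpx2, against 2.87% of all genes in that direction. For Mki67 the change was -0.02, with an interval from -0.48 to 0.43, and for Cdk1 -0.20 (-0.65 to 0.24). Intervals of this width leave room for changes in either direction. Their width came from a spread pooled over both sorts, so the SE for Mki67 was 0.214 in OPC and in O4. For Cdk1 the SDs of the normalised counts were 170 (2afl/fl) and 171 (2aOKO) in OPC, and 508 and 160 in O4. With the OPC libraries fitted alone, 0 of the 50 and 0 of all genes passed. In that fit 519 of all genes had an unadjusted p under 0.05 by limma, a count not taken for the 50.

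In O4 cells, 0 of 50 genes passed the test between genotypes, as with all genes (0%), and 1 had an unadjusted p under 0.05, against 450 of all genes (1.39% lower and 1.5% higher). The median was -0.13 and 44 of 50 were below 0, where 50.6% of all genes were. This direction rested on the 2afl/fl O4 library 2: without it the median was 0.12 and 9 were below 0. Without the 2afl/fl O4 library 3 the median was -0.38 and 47 were below 0, and without the 2aOKO O4 library 3 it was -0.03. The looser rule of the study passed 0 of the 50 and 248 of all genes. The genotypes thus could not be ordered for these genes in the O4 sort.

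Cks1b had the smallest p here as in OPC. With 486, 466 and 431 normalised counts in 2afl/fl and 394, 426, 344 and 400 in 2aOKO O4, it was the only one of the 50 without overlap, against 1.53% of all genes in that direction. Its log2 fold change was -0.24 (95% interval -0.475 to -0.001, adjusted p = 0.999 by limma). Ccnb2, the gene of cyclin B2, had 777, 996 and 489 against 609, 635, 466 and 615, with overlap, at -0.33 (-0.72 to 0.06, adjusted p = 0.999 by limma). Ndc80, a subunit of the microtubule coupler, had 465, 540 and 317 against 383, 362, 259 and 423, also with overlap, at -0.29 (-0.68 to 0.10, adjusted p = 0.999 by limma). Kif20b had the highest log2 fold change, 0.15 (-0.26 to 0.55).

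**Figure D5:**
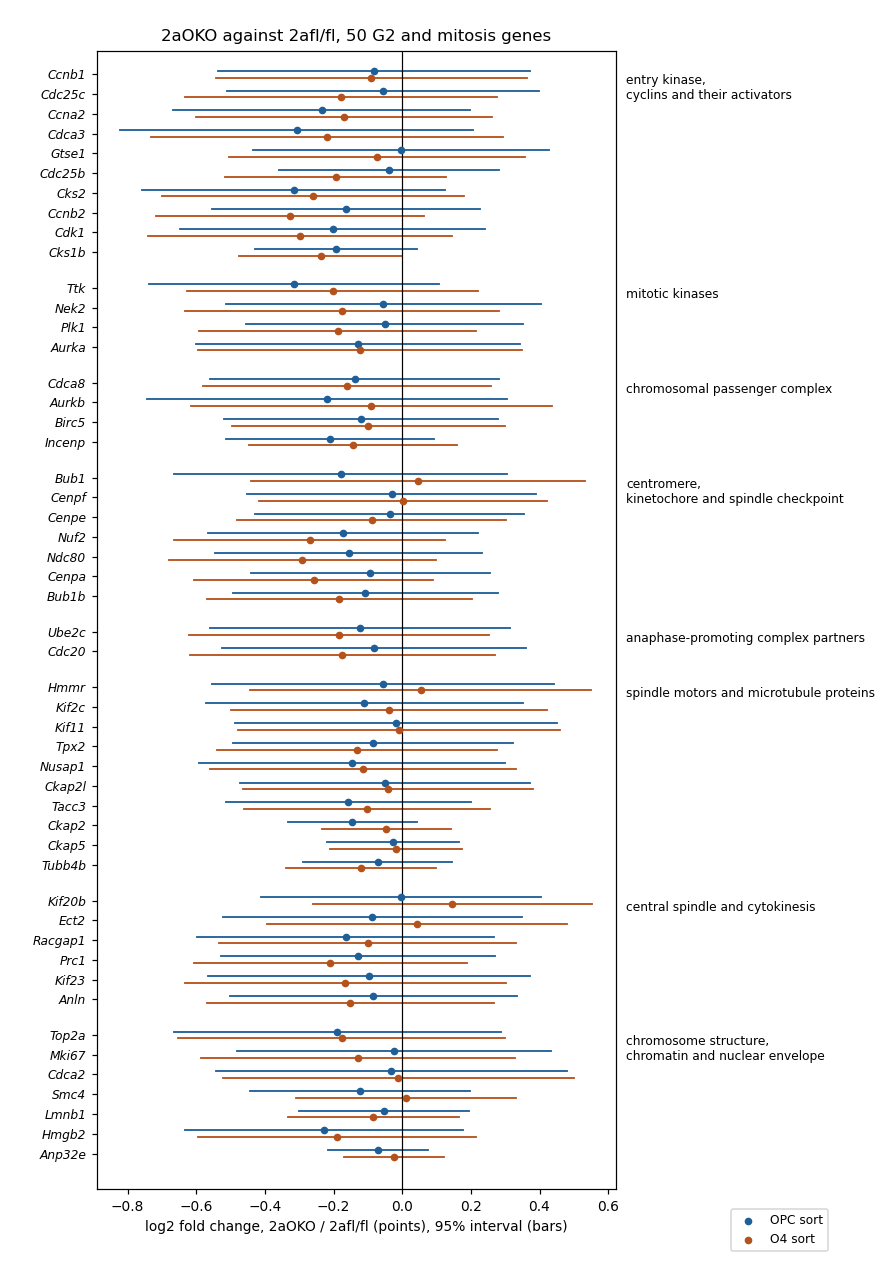
Log2 fold change of 2aOKO against 2afl/fl for each of the 50 genes in OPC (blue) and O4 (brown), by role, with 95% intervals from limma. Points lie between -0.33 and 0.15, and apart from Cks1b in O4, which ends just below 0, each interval holds 0.

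The genotype effect was compared between the sorts in the same fit, which is also the comparison of the sort effect between genotypes. Of the 50 genes 0 passed, as with all genes (0%), and 0 had an unadjusted p under 0.05, against 132 of all genes (0.475% lower and 0.373% higher). The median difference was 0.01, with 24 genes below 0 where 49% of all genes were. The smallest p belonged to Ckap2 (0.10, 95% interval -0.17 to 0.37), Cdc25b (-0.16, -0.61 to 0.30) and Cenpa (-0.16, -0.66 to 0.33), each with an adjusted p of 1 by limma. Cdc25b, a phosphatase that starts Cdk1 activation at the centrosome, had 1310, 1486 and 1507 normalised counts in 2afl/fl OPC, 1303, 1419, 1431 and 1428 in 2aOKO OPC, 837, 1110 and 616 in 2afl/fl O4 and 752, 800, 617 and 748 in 2aOKO O4. Cenpa had 1462, 1564 and 1604, then 1482, 1667, 1383 and 1277, then 833, 1270 and 682, and 766, 829, 646 and 772 in the same order. In both genes the genotypes overlapped within each sort. Without the 2afl/fl O4 library 2 the median difference was 0.23, and without the 2afl/fl O4 library 3 it was -0.24.

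Markers of other cells were compared between genotypes in the same way, and none passed. In OPC the 7 fibroblast markers were all below 0 (median -0.25), with sums of 55430 to 71240 in 2afl/fl and 44290 to 60310 in 2aOKO libraries, and in O4 the 10 endothelial markers (median -0.25) the 8 pericyte markers (median -0.27) and the 5 erythroid markers (median -0.41) were all below 0. The 10 astrocyte markers were all above 0 in both sorts (medians 0.13 and 0.12). Of 6 border macrophage markers 5 were below 0 in each sort (medians -0.32 in OPC and -0.20 in O4). Of 12 microglial markers 5 were below 0 in OPC (median 0.02) and 9 in O4 (median -0.11). Without the 2afl/fl O4 library 2, 7 endothelial, 5 pericyte and 2 erythroid markers were below 0 in O4, and the 10 astrocyte markers stayed above 0 there. In that fit 5 border macrophage and 7 microglial markers were below 0 in O4. Of the lineage lists, 8 of 10 myelin genes (median -0.15) and 1 of 10 committed and newly formed oligodendrocyte markers (median 0.23) were below 0 in O4. Without that library 10 (median -0.715) and 8 (median -0.174) were, and none passed. In OPC 5 (median -0.015) and 3 (median 0.114) were below 0. Summed OPC markers overlapped, at 852000 to 1021000 and 853300 to 977800. Their part in the small shifts of the G2 and mitosis genes was not tested.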

How the data were processed

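RNA was sequenced from 14 libraries in 4 groups (2 sorts by 2 genotypes), mapped to groups by their GEO labels. Per the methods and the submitters' processing notes, NEBNext libraries were read in pairs on a HiSeq2000, aligned with STAR 2.7.8a to mm39, assigned to RefSeq genes in Partek Flow 10 and scaled by median ratios. The deposited signal is this normalised count per gene, not scaled to gene length, and the strand setting is not given in the sources used here. Most low values (up to 20 steps) were whole multiples of a step per library, within 0.1 of a step, at 94% to 95.6% by library. The rest were fractions, some close to 0, and the share did not reach 95% in every library, so whole reads were not taken as recovered and no count model was used. The authors' 3 tables of DESeq2 comparisons hold p-values, false discovery rates, ratios, fold changes and least-squares means, and were not used.

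Values were tested as log2(value + 1) with limma 3.58.1 in R 4.3.3, on the 15565 of 18355 genes whose mean reached 10 normalised counts, with 1 mean per group and an intensity trend, two-sided, with Benjamini-Hochberg adjustment over all genes tested. A fold change on this scale understates the change of low genes. The steps were tested on simulated data. The labels do not say whether libraries come from separate animals or whether a number marks an animal. The series reports 3 to 4 mice per genotype. The p-values measure the spread between these libraries. Deviations of OPC and O4 libraries of the same genotype and number were correlated across genes. The values were 0.264 to 0.328 in 2afl/fl and 0.16 to 0.307 in 2aOKO mice. Between genotypes, which share only a number, values were 0.065 to 0.299. All values were positive and the ranges overlap. Libraries with different numbers were not correlated, so these values cannot decide whether a number pairs the sorts by animal or marks something else shared. The main fit used no pairing, and blocks by number were alternatives.

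The 50 genes, 8 role groups, 3 pathway lists and 12 marker lists were chosen with earlier results of these data known. Values by library are given for the genes with the largest and smallest change between sorts in each role in 2afl/fl mice, the 3 with the smallest p in each genotype comparison and in the difference, and those called in 1 genotype only. From the pathway lists up to 4 genes with the smallest p are named, and the few that rose. Alternatives were another pseudocount (0.5 or 8), another minimum (none or 50), and each library or library number left out. A replicate block was set by number, or by genotype and number. The rest were only the groups compared, no intensity trend, equal totals and the threshold of the study. Promoter windows came from RefSeq (GRCm38.p6), and their coordinates are not in the build of the counts.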

Additional observations from a re-analysis of the deposited data

Results flagged for a closer look

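In the 2aOKO groups of 4 libraries, Dixon's test at the 95% level was run on 100 groups (50 genes in 2 sorts). In 11 of them a library lay far from the others, where chance would give about 5 if groups were independent. They share the same libraries, and the genes move together, with a median correlation of 0.907 over the 7 O4 libraries. The 11 is therefore not read as an excess. In OPC, Cdc25b had 1303 normalised counts in library 1 (others 1419 to 1431), Cdc25c 733.6 in library 2 (523.9 to 556.2), Tpx2 3699 in library 3 (3973 to 4023) and Kif20b 1149 in library 4 (1312 to 1326). In O4, library 3 was low for Ccnb2 at 466.1 (608.7 to 634.7), Cks2 at 254.6 (329.4 to 338.1), Birc5 at 642.3 (774.1 to 792.3) and Kif23 at 444.5 (738.7 to 782.3). Library 4 was high for Aurka at 452.6 (327.4 to 344.6) and Ckap5 at 7688 (6704 to 6870), and library 1 for Tubb4b at 8018 (7072 to 7220).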

How the results depend on the processing

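With 1 or more libraries left out, 0 to 47 of the 50 genes were called lower in O4 in 2afl/fl mice (561 to 5880 of all genes, median -1.17 to -0.62) and 39 to 48 in 2aOKO mice (3334 to 5762, median -0.96 to -0.77). Between genotypes 0 to 1 of all genes were called in OPC (median of the 50, -0.147 to -0.055) and 0 to 4 in O4 (-0.38 to 0.12), and the median difference ran from -0.24 to 0.23. With only the groups compared, 7 of the 50 and 843 of all genes were called in 2afl/fl mice. At the threshold of the study 163 genes were called in OPC, 248 in O4 and 117 in the difference. Scaling to equal totals changed the split of all genes called lower and higher from 1905 and 2223 to 2972 and 1574 in 2afl/fl mice, and from 2407 and 2738 to 3707 and 1886 in 2aOKO mice. The difference turned from -0.155 to 0.054 for Cdc25b and from -0.164 to 0.087 for Cenpa without the 2afl/fl O4 library 2, and to 0.098 for Cenpa without all libraries numbered 2. With single libraries or numbers left out the lowest values were -0.37 and -0.362, both without the 2afl/fl O4 library 3. The cause was not tested. With library number as a replicate block, 47 and 48 of the 50 were called lower in O4 (5048 and 6000 of all genes), and none between genotypes (medians -0.138 and -0.182). With a block for each genotype and number, 47 and 48 were called lower in O4 (5237 and 6142 of all genes). Anln was the only one of the 50 whose call either block changed, with adjusted p = 0.0196 and 0.00732 in 2afl/fl mice (limma).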
